A study of Mus musculus with 4 samples.

Results

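Myelin and mature oligodendrocyte genes were followed across 4 single-channel oligonucleotide arrays of mouse dentate gyrus, the granule cell region of the hippocampus. The set was chosen by name: Mbp, Mobp, Mog, Mag, Cnp, Cldn11, Mal, Trf and Car2, where the array annotation gives a probe set exactly 1 symbol. It took 14 probe sets of 8 genes, out of 12422 non-control probe sets and 8251 named genes. A probe set is the group of short probes that reads 1 transcript, and no probe set of Trf, the gene of the iron carrier transferrin, was analysed here. Of the 14, 12 probe sets of 7 genes passed the filter on low values (a mean log2 intensity of 6.66), and the 2 that did not, those of Cnp and a weak one of Cldn11, are described but not tested.

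All 4 arrays form 1 group, handled controls: young C57BL/6J males that an experimenter handled and that were given nothing else. Total RNA was taken at 1, 2, 4 and 6 h, a clock set by the last shock that other mice of the study received. Arrays of shocked animals were not used here. With a single array at every hour, a difference between hours has no replicate check, and a mean ± SD is taken across the 4 hours (n = 4). The number of mice behind each RNA is not stated in the labels, so p-values measure only the spread between these 4 samples, which may be technical.

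Oligodendrocytes wrap axons in myelin, a stack of lipid membrane that speeds conduction. Mbp sits on the inner faces of compact myelin and holds them together, and Mobp is another small basic protein of compact myelin. Cldn11 forms the tight junctions between the myelin layers, and Mal is a tetraspan membrane protein. Mog lies on the outermost surface, Mag on the innermost, axon-facing one, Cnp is an enzyme of the non-compact cytoplasm, and Car2 is a carbonic anhydrase that oligodendrocytes share with red cells and choroid plexus. In bulk RNA, fewer oligodendrocytes and less RNA per oligodendrocyte cannot be told apart.

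The promoters of 3 members are printed because these genes mark both ends of the results below: Mobp differed most between the arrays, Mag was also highest at 2 h, and Mal was nearly level. Each window runs from 250 bases before to 50 bases after a RefSeq transcript start of the GRCm38.p6 assembly, 5′ to 3′ on the gene's own strand. The windows are chr9:120149492-120149791 (plus strand) for Mobp, chr7:30914814-30915113 (minus strand) for Mag and chr2:127656646-127656945 (minus strand) for Mal. Capitals mark ACAAAG or its complement CTTTGT, a core that SOX transcription factors such as the oligodendrocyte factor Sox10 can bind.
Mobp: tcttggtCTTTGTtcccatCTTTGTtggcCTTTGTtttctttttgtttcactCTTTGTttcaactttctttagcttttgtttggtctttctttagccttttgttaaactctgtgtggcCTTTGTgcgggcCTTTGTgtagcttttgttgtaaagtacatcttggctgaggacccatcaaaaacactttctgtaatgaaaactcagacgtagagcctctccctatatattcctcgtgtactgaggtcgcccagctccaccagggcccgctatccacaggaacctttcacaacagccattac
Mag: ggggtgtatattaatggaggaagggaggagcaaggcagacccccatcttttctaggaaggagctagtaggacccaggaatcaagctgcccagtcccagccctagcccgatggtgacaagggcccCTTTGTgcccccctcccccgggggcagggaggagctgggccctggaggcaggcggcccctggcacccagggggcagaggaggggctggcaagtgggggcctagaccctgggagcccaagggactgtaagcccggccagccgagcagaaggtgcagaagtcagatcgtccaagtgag
Mal: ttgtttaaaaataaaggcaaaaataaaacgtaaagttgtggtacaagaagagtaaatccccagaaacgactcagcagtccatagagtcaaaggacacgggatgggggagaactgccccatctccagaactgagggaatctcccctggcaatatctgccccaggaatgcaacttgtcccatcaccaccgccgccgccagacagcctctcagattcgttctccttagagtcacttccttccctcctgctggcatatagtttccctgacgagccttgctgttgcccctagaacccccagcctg

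The Mobp window held 6 copies of this motif, the Mag window 1 and the Mal window 0. Among 32851 RefSeq windows of 300 bases, 18.7% held the motif at least once on either strand, and 1 window, that of Mobp, held 6 or more. The Mobp copies lie in a T-rich stretch at the upstream end of the window. Of the 8 windows found for 6 of the members, 4 held the motif: those of Mobp and Cnp and 2 of the 3 of Mag. The windows of Mog and Cldn11 held 0, although Mog and the brighter Cldn11 probe set were also highest at 2 h. That of Cnp, a gene lower at 2 h than at 6 h, held 1 copy. A search of both strands covered 12 short motifs in all, and ACAAAG was singled out from them after the matches were seen. A longer SOX form that contains it, AACAAAG, stood in 2 of the 8 windows (Mobp and Cnp) and in 5.85% of all. The GC box GGGCGG stood in 2 (Cldn11 and Cnp; 35.7% of all), the CCAAT box in 3 (Cldn11 and 2 of Mag; 37.4%), and the E-box CACCTG in 2 (Mag and Cnp; 20.2%). The other 7 stood in 0 of the 8. Of these, the SOX-related ACAATG was in 12.6% of all windows, with AACAAT at 10.7% and their shared core ACAAT at 31.0%. The TATA box TATAAA was in 13.6% of all, the E-box CAGCTG in 16.3%, its variant CAGATG in 17.2% and the variant CATATG in 3.91%. A match of letters is no evidence of binding, and the windows of Mag overlap in part.

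In the 2 h array, most myelin genes were at their highest of the 4 arrays. Of the 12 tested probe sets, 10 had their highest value at 2 h, against 25.4% of all 7453 probe sets. Probe sets of 1 gene share a transcript, so the count was repeated with the brightest probe set of each gene: 6 of 7 genes were highest at 2 h, against 25.2% of 5689 genes. Mal was the exception. This pattern was noticed in the values and has no test, but it does not need the 1 h array. Higher at 2 h than at both 4 h and 6 h were 10 of 12 probe sets (37.0% of all) and 6 of 7 genes (36.3%). When the medians of the arrays were made equal, both probe set counts were 9 of 12, because Car2 was then highest at 6 h. The shares of all probe sets were then 20.9% for highest at 2 h and 29.1% for higher there than at 4 h and 6 h.

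**Figure D1:**
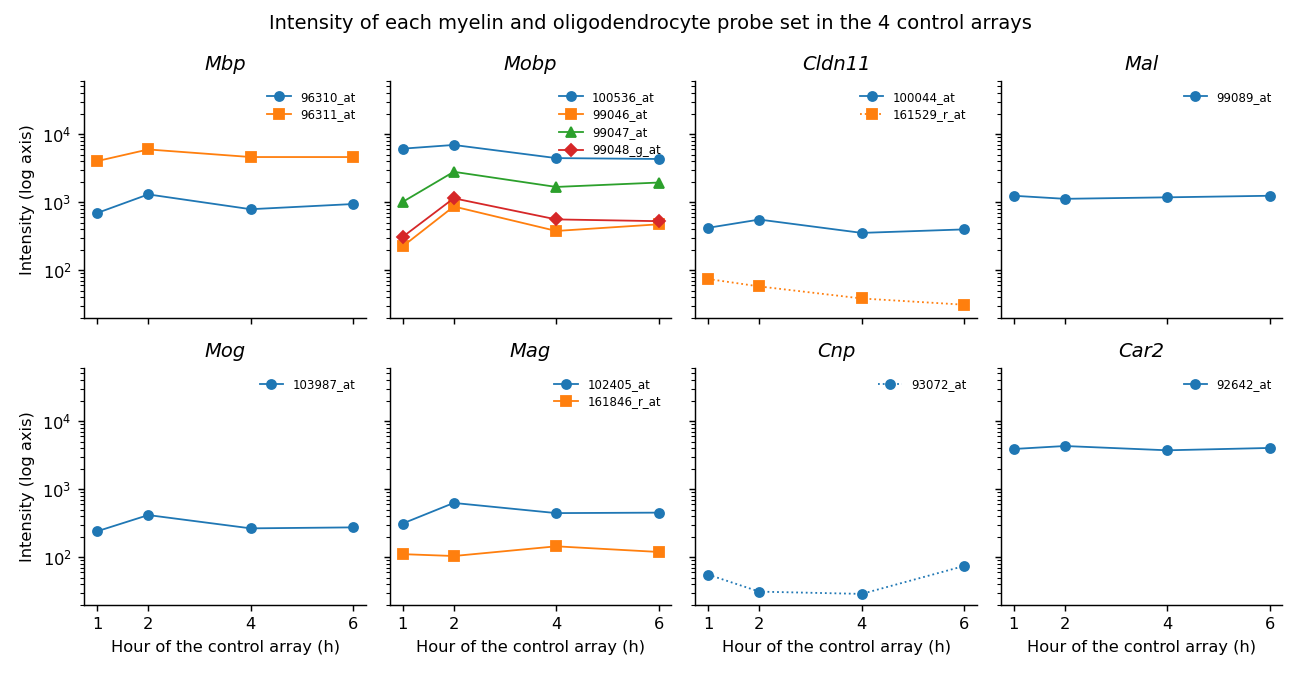
Intensity (log axis) of each probe set against the hour of the control array (h), 1 panel per gene and 1 line per probe set. Dotted lines are the 2 probe sets under the filter, and each point is 1 array. The lines of Mbp, Mobp, Mog and the brighter Mag and Cldn11 probe sets peak at 2 h, while those of Mal and Car2 are nearly level.

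Mbp, the gene of myelin basic protein, was read by 2 probe sets. The brighter had intensities of 3998, 5931, 4590 and 4588 at 1, 2, 4 and 6 h. The other read 690, 1297, 786 and 937. On both, the 2 h array was the highest and the 1 h array the lowest, and at 2 h they were 1.29-fold and 1.51-fold above the geometric mean of 4 h and 6 h. The 4 h and 6 h values of the brighter probe set were almost equal. Its mean was 4777 ± 818 (SD, n = 4), and its slope was -0.001 ± 0.054 (SE) log2 units per hour (limma adjusted p = 0.997).

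Mobp, the gene of myelin-associated oligodendrocyte basic protein, had 4 probe sets, and they disagreed at 1 h. The brightest read 6091, 6907, 4428 and 4297 at 1, 2, 4 and 6 h. The second read 1004, 2786, 1669 and 1937. On the brightest, the 1 h array was second highest, whereas on the other 3 it was the lowest. The third and the fourth read 307, 1138, 557 and 525, and 223, 862, 377 and 472. Against the mean of the other 3 arrays, the 1 h value was 1.20-fold for the brightest and 0.482-fold, 0.444-fold and 0.417-fold for the other 3. All 4 were highest at 2 h, by 1.58-fold, 1.55-fold, 2.11-fold and 2.05-fold over the mean of 4 h and 6 h in the order given. The second and the third carry the same sequence accession in the annotation, so they are not independent readings.

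The brightest Mobp probe set had the steepest slope of the members, -0.133 ± 0.045 (SE) log2 units per hour. Its unadjusted p was 0.0244 and its adjusted p 0.874 in limma, so it did not pass. The other 3 Mobp probe sets had slopes of 0.089, 0.075 and 0.027. Fitted to the later arrays alone, all 4 slopes were negative, from -0.279 to -0.131. The 1 h array, where the Mobp probe sets parted, was also set apart by its Gapdh control probes, where signal at the 3′ end over that at the 5′ end was 4.88, against 1.13 to 1.33 in the later arrays. The same ratio for beta-actin was 2.51, against 1.83 to 2.20, a much smaller gap. The part of these differences in the Mobp values was not tested.

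Cldn11, the claudin of myelin tight junctions, read 419, 554, 353 and 397 at 1, 2, 4 and 6 h on its brighter probe set. The 2 h array stood 1.48-fold above the mean of 4 h and 6 h, and the 1 h array lay among the later ones. Its second probe set, under the filter, read 74.2, 57.7, 38.4 and 31.1. That probe set was lower at each later hour, and the brighter one did not follow it. The ending _r_at of its name marks relaxed rules of probe design, so its value is less certain.

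Mal, a proteolipid of myelin and of epithelial cells, was the steadiest member. It read 1239, 1117, 1175 and 1239, a mean of 1192 ± 58.6 (SD, n = 4). The 2 h array was its lowest, opposite to most members, but the whole range was 1.11-fold. The SD of its log2 values was 0.07, against a median of 0.24 over all tested probe sets.

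Mog, a surface glycoprotein known as a target of autoantibodies, read 240, 416, 265 and 274 at 1, 2, 4 and 6 h. The 1 h, 4 h and 6 h arrays were close together, and 2 h stood 1.54-fold above the mean of 4 h and 6 h. Mag, a sialic acid-binding adhesion protein that faces the axon, read 312, 627, 444 and 451 on its brighter probe set. Here too 2 h was the highest and 1 h the lowest, and the range was 2.01-fold. The second Mag probe set read 111, 104, 145 and 119 and was lowest at 2 h, so the Mag probe sets disagreed on the order of the arrays. It is dim, and its name has the same ending.

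Cnp, a cyclic nucleotide phosphodiesterase used as an oligodendrocyte marker, read 55.6, 31.2, 28.9 and 74.3. All 4 values lay under the filter level but above the floor of 16.4, below which intensities were set equal. The order was not that of Mbp or Mog: Cnp was 0.673-fold at 2 h relative to the mean of 4 h and 6 h. Car2 read 3885, 4297, 3717 and 4024, a mean of 3981 ± 245 (SD, n = 4), with a range of 1.16-fold. Its 2 h array was the highest by 1.11-fold over the mean of 4 h and 6 h, less than in any other gene that peaked there. Red cells and choroid plexus also express Car2, and their markers had no single order. Of 4 tested red cell probe sets, Bpgm (881, 1030, 1018 and 1022) was highest at 2 h as Car2 was, Hba-a1 (3154, 2469, 3397 and 1931) at 4 h, and Hbb-b2 (435, 422, 437 and 466) and Slc4a1 at 6 h. Of 7 tested choroid plexus and ependymal probe sets, Ace (207, 214, 176 and 140) was highest at 2 h, Kl at 1 h, Igf2 and Igfbp2 at 4 h, and Foxj1, Folr1 and Ttr (225, 444, 1258 and 3009) at 6 h. The part of these cells in the Car2 values was not tested.

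Among the tested members Mal and Car2 varied least, with log2 SDs of 0.07 and 0.09. The others graded from 0.20 for the dimmer Mag and 0.24 for the brighter Mbp probe set to 0.81 for the dimmest of Mobp. At 2 h against the mean of 4 h and 6 h, the median log2 difference of the 12 probe sets was 0.58, against 0.02 over all tested. A difference of at least 2-fold there was found in 2 of 12, both of Mobp, against 1.52% of all. At 1 h against the mean of the other 3 arrays the median was -0.35, against 0.05 over all. Lowest of the 4 arrays at 1 h were 7 of 12, against 30.4% of all: both Mbp probe sets, 3 of Mobp, Mog and the brighter Mag.

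**Figure D2:**
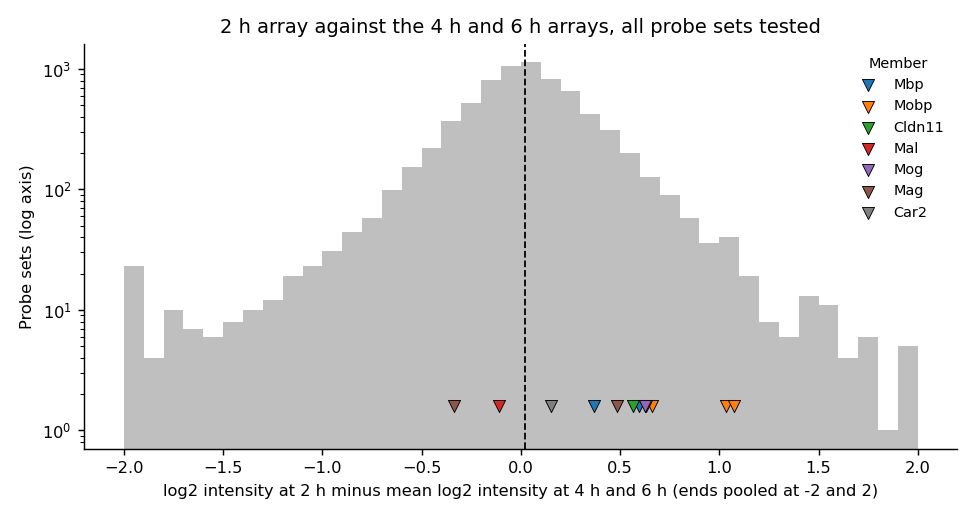
Histogram of the log2 intensity at 2 h minus the mean log2 intensity at 4 h and 6 h for all 7453 tested probe sets (grey; log count axis; dashed line, median of 0.02; values beyond the axis are pooled in the end bars). Triangles place the 12 member probe sets on the same axis; 10 lie above 0 and the dimmer Mag probe set and Mal lie below it.

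Compared with 1 h, 4 of 12 member probe sets were at least 2-fold higher at 2 h, against 6.35% of all. They were 3 of Mobp, at 3.87-fold, 3.71-fold and 2.78-fold, and the brighter Mag at 2.01-fold. At 4 h, 0 of 12 were at least 2-fold higher than at 1 h (5.68% of all), and at 6 h 1 of 12, the dimmest of Mobp at 2.12-fold (5.69% of all). At least 2-fold lower than at 1 h were 0 of 12 at 2, 4 and 6 h, against 3.45%, 2.74% and 3.65% of all. With shares this small, 0 of 12 does not set the members apart. These comparisons share the 1 h array, with its Gapdh ratio of 4.88 and beta-actin ratio of 2.51, whose part in them was not tested.

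Over all 4 arrays, 4 of 12 had a range of at least 2-fold, against 18.5% of all. Over the 2, 4 and 6 h arrays it was 2 of 12, against 8.22%, and without the 2 h array 1 of 12, against 13.8%. A range over fewer arrays cannot be larger. The share of all depends on the filter: at the 60th percentile of mean intensity, which 11 of the 12 members pass, it was 8.11% over 4 arrays and 1.91% over the later 3, with 4 of 11 and 2 of 11 members. The median SD of the log2 values was 0.34 for the members and 0.24 for all tested probe sets. Without the 1 h array it was 0.35 and 0.18. The spread of all probe sets was smaller without that array, and that of the members was not.

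**Figure D3:**
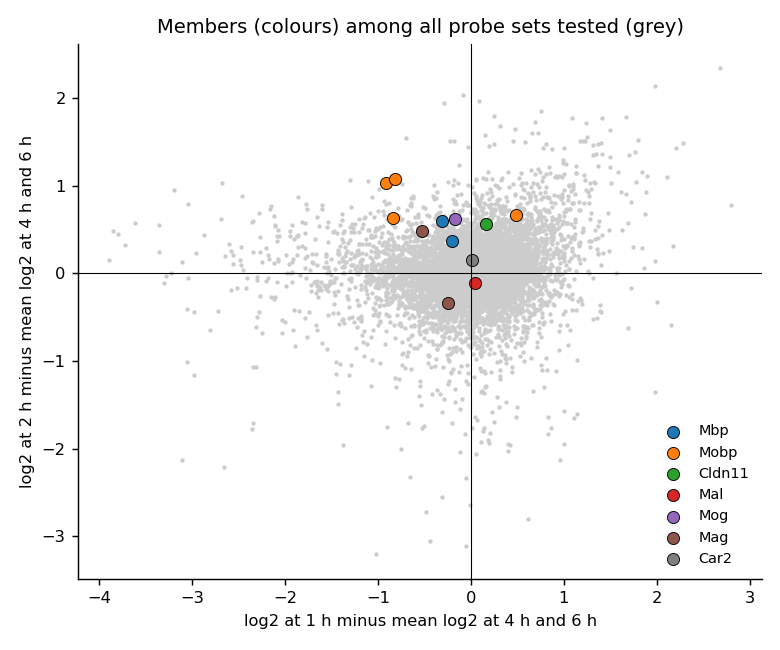
Log2 intensity at 1 h (horizontal) and at 2 h (vertical), each minus the mean log2 intensity at 4 h and 6 h, for all tested probe sets (grey points) and the 12 member probe sets (coloured). Both axes share the same reference, so a slant of the grey cloud is built in. Of Mobp, 3 probe sets lie at -0.92 to -0.81 on the horizontal axis, and the brightest lies at 0.48.

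No member had a slope over the hours that passed the test. In limma, 0 of 12 passed at an adjusted p of 0.05, against 0.0134% of all, which is the Ttr probe set alone. At an unadjusted p under 0.05 there was 1 of 12, the brightest Mobp, against 4.4% of all. Slopes were positive in 7 and negative in 5, from -0.133 to 0.089, with a median of 0.012 against -0.006 over all tested. The signs depended on the 1 h and 2 h arrays: without the 1 h array 2 of 12 slopes were positive and the median was -0.119. Without the 2 h array 9 of 12 were positive and the median was 0.040. In each of these fits 4 of 12 had an unadjusted p under 0.05 in limma, against 5.23% of all without 1 h and 13.4% without 2 h, and 0 of 12 passed the adjusted threshold. A straight line describes a peak at 2 h poorly, so these slopes do not measure it.

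Other oligodendrocyte probe sets that passed the filter were highest at 2 h about as often as all probe sets. Of 43 further oligodendrocyte genes listed, 15 genes with 17 probe sets were tested; 0 passed for a slope, 5 were positive and 12 negative. Highest at 2 h were 5 of 17, against 25.4% of all probe sets, and 8 of 17 were higher there than at 4 h and 6 h, against 37.0%, with a median log2 difference of 0.14. Lpar1, a lysophosphatidic acid receptor of oligodendrocytes, read 448, 577, 309 and 201 and had the steepest slope of the list, -0.274 (limma unadjusted p = 0.00839, not passing after adjustment). Its 2 h array was 2.31-fold above the mean of 4 h and 6 h. Myrf, another of the 5 highest at 2 h, read 286.2, 482.1, 276.0 and 410.5, or 1.43-fold at 2 h on the same measure.

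Of the 5 brightest probe sets of that list, those of Qdpr, Sox10 and Septin4 varied least. Qdpr, an enzyme of biopterin recycling, read 4063, 4363, 4231 and 4329, and Sox10, the transcription factor of the lineage, 906, 935, 900 and 796. Septin4 read 1209, 1282, 1315 and 1177, but its dimmer probe set, under the filter, read 209.5, 85.1, 140.5 and 15.6. For the brighter Sox10 probe set the 2 h array was the highest by 1.10-fold over the mean of 4 h and 6 h, less than for Mbp or Mog. The dimmer Sox10 probe set, under the filter, read 72.8, 204.2, 67.2 and 61.0, or 3.19-fold at 2 h on the same measure. The brighter Ndrg1 probe set read 1515, 1499, 1158 and 1271, nearly equal at 1 h and 2 h, and the other read 887, 1102, 815 and 730, highest at 2 h. Apod, a lipocalin (1106, 897, 898 and 719), and Evi2a (568, 344, 378 and 330) were highest at 1 h. Gsn, an actin-severing protein, read 320, 587, 470 and 672.

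Progenitor genes and lipid enzymes gave no shared order. Of 7 progenitor probe sets, 3 were highest at 2 h (25.4% of all) and 0 passed for a slope, with a median slope of -0.018. Pdgfra, the growth factor receptor of progenitors, read 1042, 1250, 889 and 1006, and Bcan, a brain proteoglycan, 1443, 2012, 2430 and 2233. The brighter Ptprz1 probe set read 1300, 664, 657 and 1115, the dimmer 693, 957, 939 and 952, and Vcan 340, 94.8, 183 and 90.4. Thus Pdgfra was highest at 2 h like the myelin genes, while this Bcan probe set was highest at 4 h. The dimmer tested Bcan probe set read 150.1, 110.9, 58.1 and 158.4, lowest at 4 h and highest at 6 h.

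Myelin lipids come from fatty acid and cholesterol synthesis, which neurons and astrocytes also run. Of 21 probe sets of such enzymes, 6 were highest at 2 h (25.4% of all) and 0 passed for a slope, 11 positive and 10 negative. Scd2, a fatty acid desaturase, read 12662, 12885, 12096 and 12714 on its brighter probe set. The dimmer Scd2 probe set read 4254.5, 3365.3, 3254.7 and 4162.6, highest at 1 h with a range of 1.31-fold. Fasn, fatty acid synthase, read 1552, 1884, 1402 and 1471. Fdps, of the cholesterol pathway, read 541, 1424, 1551 and 1600 on the probe set of steepest slope, lowest at 1 h and close together afterwards. Both tested Scd1 probe sets were highest at 1 h, at 3646, 2584, 2648 and 2712 and at 3356, 2365, 3166 and 2844. The other, under the filter, read 36.7, 133, 99.2 and 110.0 and was lowest there.

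Lists of other cell types were set beside the members by the median log2 deviation of their tested probe sets from the mean of the 4 arrays. For the members this was -0.26, 0.44, -0.08 and 0.01 at 1, 2, 4 and 6 h. Neuron markers were also low at 1 h, with -0.29, 0.13, 0.03 and 0.18, but their median was highest at 6 h. Of 15 neuron probe sets, 7 were highest at 2 h (25.4% of all) and 11 lowest at 1 h (30.4% of all). The astrocyte medians stayed within -0.05 to 0.06, but single probe sets varied more. Of 17 astrocyte probe sets, 6 were highest at 2 h (25.4% of all) and 9 lowest at 1 h (30.4% of all). Microglia markers were -0.18, 0.01, 0.04 and -0.02. Endothelial markers (9 probe sets) gave 0.10, 0.31, -0.09 and -0.22, and so were also highest at 2 h. Choroid plexus and ependymal markers were -0.78, 0.14, 0.18 and 0.33, meningeal markers -0.07, 0.04, 0.39 and -0.17, and erythrocyte markers 0.11, -0.03, 0.02 and 0.07.

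**Figure D4:**
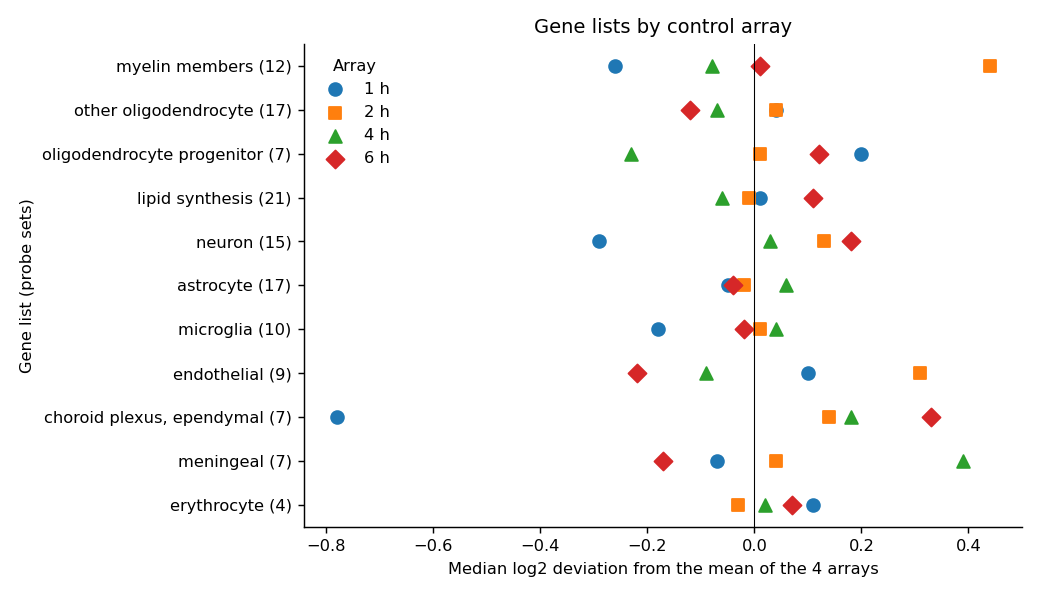
Median log2 deviation of each gene list from the mean of the 4 arrays (horizontal axis), 1 row per list with its number of tested probe sets, and 1 marker per array. The myelin members stand at 0.44 in the 2 h array, the highest value of any list and array shown; choroid plexus and ependymal genes stand at -0.78 in the 1 h array.

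The share of these other cells in the myelin values was not tested. Summed over all its probe sets, the endothelial list read 19865, 21905, 20472 and 21002, and the members 18649, 26126, 18573 and 19364. Such sums follow the brightest probe sets. Most of the endothelial sum came from the brighter Ly6e probe set (15795, 15117, 13877 and 14390) and Bsg (1728, 4629, 4780 and 5053). Bsg was low at 1 h, so the endothelial sum does not describe the list as a whole. Cldn5, the claudin of brain endothelium, read 364, 517, 401 and 241. Among neuron markers, Snap25 read 22175, 18591, 18541 and 19705, Thy1 13715, 11757, 11644 and 12035, and Syp 569, 1503, 1333 and 1810. The tissue label was set against granule cell genes: Calb1 read 2033, 2052, 2323 and 2375, and Prox1 71.6, 278, 155 and 232. Of 8 Schwann cell genes, which would mark peripheral nerve, Egr2 alone was named and read 115, 102, 130 and 119, so peripheral myelin could not be assessed.

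The genes outside the set whose order over the arrays was closest to the members' median were Fars2, Chordc1 and Serpinf1. Likeness was the root mean square difference of log2 deviations over 4 arrays, at 0.030, 0.043 and 0.043. Fars2, a mitochondrial tRNA synthetase, read 314, 506, 354 and 383, Chordc1 549, 893, 625 and 699, and Serpinf1 219, 341, 247 and 251.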

How the data were processed

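Each of the 4 samples gave 1 array of total RNA. The authors deposited linear intensity values, 1 per probe set and array; software, scaling and genome build are not given in the sources used here. The 2% trimmed mean of the deposited intensity was 500.3 in every array, so differences in total RNA do not show.

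Of 12488 rows, 66 controls were left out. Annotation gave 10833 probe sets 1 symbol, 396 several and 1193 none; symbols were checked through RefSeq Entrez identifiers (GRCm38.p6). Values under the 10th percentile (16.4) were set to it and log2 taken; probe sets at or above the 40th percentile of mean log2 intensity (6.66) were tested, 7453 in all. Slopes on the hour came from limma 3.58.1 in R 4.3.3 (lmFit, eBayes with an intensity trend, 2 residual degrees of freedom, two-sided), with Benjamini-Hochberg adjustment over all 7453 at 0.05. The slope fit was tested on simulated data. Counts of probe sets 2-fold apart or ordered by array have no test.

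Members, lists and rules were chosen with earlier results of these data known. Named were every member probe set, and the brightest and steepest of each list (5 and 3 for the 3 oligodendrocyte-related lists, 3 and 2 for the others), with the 3 closest profiles; only part of these is printed. Prox1, Calb1 and any other red cell or choroid plexus genes were added after their values were seen. So were Myrf and the dimmer probe sets printed for Bcan, Ndrg1, Scd1, Sox10, Septin4, Fdps and Col1a1. Alternatives were median or quantile scaling, another floor or filter, the log2 of the hour, no variance trend, and leaving out each array. Promoter windows came from RefSeq, and 12 short motifs were counted in them.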

Additional observations from a re-analysis of the deposited data

Results flagged for a closer look

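Of 71 probe sets examined, 9 had 1 array far from the other 3, and 0 of the 14 member probe sets did. The measure was Dixon's gap-to-range ratio at its 95% critical value, which chance exceeds in about 1 of 20, or 3.55 of 71. Part of the 71 had been picked for steep slopes or close profiles in these same values, so 3.55 is not a fair comparison. In 7 of the 9 the 1 h array stood apart. It was low on 1 probe set each of Fdps (541.4), Ptprz1 (693.4), Aqp4 (217.4), Bsg (1727.8), Igf2 (1500.6) and Bpgm (881.3), and high on 1 of Scd1 (3646.0). Other probe sets of these genes did not all follow. The brighter Ptprz1 probe set was highest at 1 h (1300), and a dimmer Fdps probe set read 1114, 1148, 1110 and 1562. The 4 h array stood apart on 1 probe set each of Ptgds (high, 13501.4) and Col1a1 (low, 66.7). The dimmer Col1a1 probe set, under the filter, read 89.1, 107.5, 94.4 and 91.8.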

How the results depend on the processing

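Across 107 slopes of single member probe sets under 9 alternatives, 0 passed the threshold in limma (lowest adjusted p 0.209), and 15 had the other sign; in 5 of those the 1 h array had been left out. The count of members with a slope stayed at 0 under every alternative run, including the log2 of the hour, whose slopes have another unit and were compared by calls only. The members' median slope ran from -0.119 to 0.04 when 1 array was left out, the lowest being without the 1 h array. Over all probe sets the count called was 0 with no filter and 0 without the variance trend, and 0 to 1 when 1 array was left out (0 without 4 h or 6 h), against 1 as reported. Member probe sets 2-fold apart between 6 h and 1 h numbered 2 of 12 with median scaling (9.7% of all) and 2 of 14 with no filter (19.8%). As reported it was 1 of 12 (9.34%). Those with a 2-fold range numbered 1 to 4 of 12 when 1 array was left out, 2 without 1 h (8.22% of all) and 1 without 2 h (13.8%). The count highest at 2 h was 9 to 10 and that lowest at 1 h was 7 under the scalings, floors and filters tried, alternatives chosen after seeing the data. These are out of 14 members with no filter, 11 with the filter at the 60th percentile and 12 otherwise. Of all probe sets, 20.9% to 25.3% were highest at 2 h and 24.4% to 32.8% lowest at 1 h under these alternatives. With no filter, 20.1%, 19.5% and 19.8% of all probe sets were 2-fold apart from 1 h at 2, 4 and 6 h, and with the filter at the 60th percentile 5.01%, 4.11% and 4.65%. Making the medians equal shifted 6 h values up by 0.08 (log2). The number of arrays and, for Cnp and the dimmer Cldn11 probe set, a signal near the floor limit what can be seen.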
